A study of Mus musculus with 6 samples.

Results

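The genes described here are the MHC antigen presentation genes of the mouse brain. They are 10 of the 38087 gene rows of the series, matched by symbol to H2-K1, H2-D1, B2m, Tap1, Tap2, Tapbp, Psmb8, Psmb9, Cd74 and H2-Aa. Major histocompatibility complex (MHC) class I molecules carry peptides cut in the cytosol to the cell surface, where CD8 T cells read them. The peptides are cut by the proteasome, pumped into the endoplasmic reticulum by the TAP transporter, and loaded onto a heavy chain that is paired with beta-2-microglobulin. Class II molecules carry peptides from the endosome of professional antigen-presenting cells, and in the brain parenchyma both arms are known to be low at rest and to rise with interferon-gamma.

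RNA was sequenced from the cerebrum, taken with cortex and hippocampus and without olfactory bulb, cerebellum or medulla, of 3 wild-type (WT) and 3 Sgo1-/+ mice on a C57BL6 background. The Sgo1-/+ mice carry 1 working copy of Shugoshin 1, a protector of cohesin at the centromere, in every cell of the body. All mice were 24 months old and untreated, and each library came from 1 mouse. WT replicate 1 was male and WT replicates 2 and 3 were female, and Sgo1-/+ replicate 2 was male and Sgo1-/+ replicates 1 and 3 were female. All WT libraries were sequenced in run 258 and all Sgo1-/+ libraries in run 259, so run and genotype cannot be told apart.

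Between 11123917 and 12505561 estimated counts were assigned to genes in each library. Sgo1 itself was too low to check the genotype labels, with 0, 7 and 0 estimated counts in the WT libraries and 4, 2 and 0 in the Sgo1-/+ libraries. WT replicate 1 stood apart from the rest: its mean correlation with the other libraries over log2 expression was 0.935, against 0.967 to 0.970 for the others. It held a summed normalized count of 23130 for 10 cerebellar genes, against 1001 to 2638 in the other libraries, and of 4515 for 8 cortical genes, against 14060 to 18140. Where this library was the highest or changed a member's value much, the value without it is given below.

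In the mm10 assembly (GRCm38), 8 of the members lie on chromosome 17. Psmb9 (34181988 to 34187764, minus strand), Tap1 (34187553 to 34197225, plus strand), Psmb8 (34197721 to 34201454, plus strand) and Tap2 (34203527 to 34216321, plus strand) are neighbours. H2-Aa lies beyond them at 34282744 to 34287827 on the minus strand. H2-K1 (33996017 to 34000333, minus strand) and Tapbp (33915899 to 33929288, plus strand) lie at one end of the complex, and H2-D1 (35262730 to 35267499, plus strand) lies toward the other. B2m is on chromosome 2 (122147686 to 122153083, plus strand), and Cd74 is on neither.

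The promoters of the class I heavy chains are known for a conserved stretch that holds a kappaB-type element, bound by NF-kappaB and Rel factors, followed by an interferon response element, and class I and class II promoters also share a Y box. RefSeq promoter windows (GRCm38.p6, 250 bases before to 50 after the start) were matched for 8 of the 10 members. The strings below were searched on both strands. GGGATTCCC, the kappaB letters, was in 0.353% of 32851 windows. TTTCANTT, the interferon element letters, was in 6.58%, and CTGATTGG, the Y box letters, was in 4.1%. The stretches below show how alike the promoters of H2-K1, H2-Q6 and H2-Q7 are, with B2m for comparison. The last 2 show the Y box letters of class II genes. Capitals mark the strings found, and positions are counted from the RefSeq start. H2-Q6, H2-Q7 and H2-Eb1 are class I and class II genes outside the members, shown because their counts are described below.
H2-K1 (chr17:34000403-34000472, minus strand): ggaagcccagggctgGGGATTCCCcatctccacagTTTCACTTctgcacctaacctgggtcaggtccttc
H2-Q6 (chr17:35424663-35424732, plus strand): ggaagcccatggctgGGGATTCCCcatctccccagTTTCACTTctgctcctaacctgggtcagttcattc
H2-Q7 (chr17:35439007-35439076, plus strand): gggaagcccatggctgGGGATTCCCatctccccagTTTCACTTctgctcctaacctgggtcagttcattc
B2m (chr2:122147515-122147584, plus strand): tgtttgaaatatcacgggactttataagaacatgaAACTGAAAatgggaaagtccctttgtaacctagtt
H2-Aa (chr17:34287855-34287934, minus strand): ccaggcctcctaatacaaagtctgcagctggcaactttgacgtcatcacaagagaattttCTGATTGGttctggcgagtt
H2-Eb1 (chr17:34305745-34305824, plus strand): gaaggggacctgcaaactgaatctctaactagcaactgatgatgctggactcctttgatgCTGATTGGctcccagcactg

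The corresponding H2-D1 stretch, which lies in the first exon of one of its annotated isoforms and is not printed, was identical to that of H2-K1 at 69 of 70 bases. Each of them matched the H2-Q6 stretch at 65 of 70. Among the 8 members with a window, GGGATTCCC was found in H2-K1 and H2-D1, and TTTCANTT in H2-K1, H2-D1 and B2m, in B2m on the reverse strand. CTGATTGG was found in H2-K1, H2-D1, Tap1, Psmb9 and H2-Aa, in H2-K1, H2-D1 and Tap1 on the reverse strand. In the 2 windows of H2-K1 it began 8 bases after the start and 6 bases before it. In H2-Aa it began 51 bases before the start, and in H2-Eb1 62 bases before it. The windows of Tapbp and Psmb8 held none of the 3 strings. Not every heavy chain searched held them all: the window of H2-Q4, outside the members, held TTTCANTT but neither GGGATTCCC nor CTGATTGG. A match of letters shows no binding in these brains.

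All 10 members were detected in all 6 libraries and passed the filter on low counts, with estimated counts from 20 (H2-Aa, Sgo1-/+ replicate 2) to 2035 (B2m, Sgo1-/+ replicate 1). Per length, as CPM (counts scaled by library size) per kb of exon, B2m was the most abundant member at 169 ± 27.8 (SD, n = 6 libraries). It was followed by H2-D1 at 36.4 ± 12.3, H2-K1 at 21.2 ± 7.84, Tapbp at 9.07 ± 1.17 and Cd74 at 7.51 ± 5.49. Tap2 stood at 4.09 ± 0.746, Psmb8 at 2.04 ± 0.868, Tap1 at 1.42 ± 0.650, Psmb9 at 1.16 ± 0.186 and H2-Aa at 1.10 ± 0.635. The ranges of B2m and H2-D1 did not overlap, nor did those of H2-K1 and Tapbp. H2-D1 was above H2-K1 in 6 of 6 libraries although their ranges overlapped. Every pair of neighbours from Tapbp down to H2-Aa overlapped in range, and Tap1 was above Psmb9 in only 3 of the 6 libraries.

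To ask whether haploinsufficiency of Sgo1 went with a change in antigen presentation genes, WT and Sgo1-/+ libraries were compared. The mean of each of the 10 members was lower in Sgo1-/+, as it was for 50.2% of the 16337 genes tested, and their median log2 fold change was -0.35, against -0.0007 over all genes tested. None of the 10 passed the edgeR quasi-likelihood test with Benjamini-Hochberg adjustment, and neither did any other gene (0%), with an adjusted p of 0.9999 for each member. None had an unadjusted p under 0.05, against 2.04% of all genes tested. The WT and Sgo1-/+ libraries overlapped for all 10 members, and 3.57% of the genes tested had groups that did not overlap with Sgo1-/+ lower. DESeq2 called 3 of all genes and limma 0, both called 0 of the 10 members, and both gave 0 of them an unadjusted p under 0.05.

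**Figure D1:**
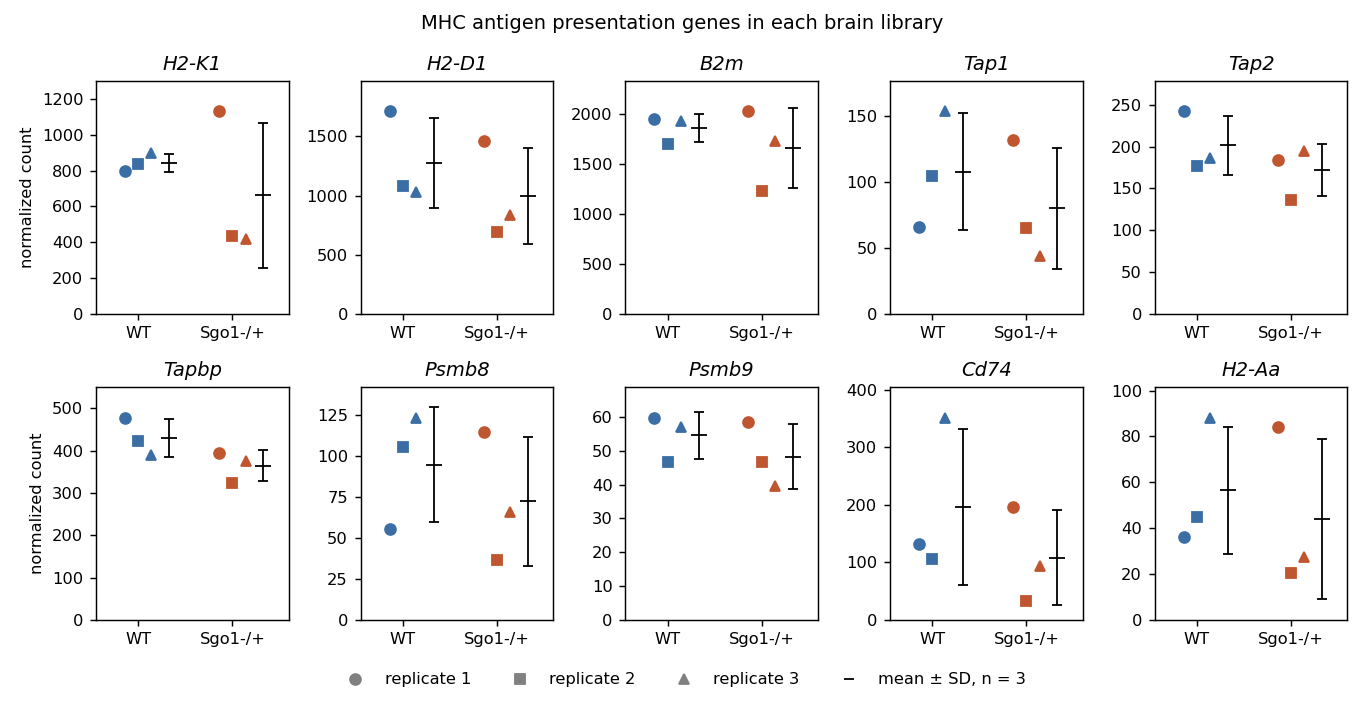
Normalized count (y axis, linear and from 0) of each MHC antigen presentation gene in 3 WT (blue) and 3 Sgo1-/+ (orange) brains, with marker shapes for replicates and black bars for the mean ± SD. Sgo1-/+ replicate 2 lies below every WT library in 10 of 10 panels, Sgo1-/+ replicate 3 in 7 and Sgo1-/+ replicate 1 in 0.

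The 3 Sgo1-/+ brains were not alike. Sgo1-/+ replicate 2 was below every WT library for 10 of the 10 members (20.2% of all genes tested) and Sgo1-/+ replicate 3 for 7 (19.0%), but Sgo1-/+ replicate 1 for 0 (17.4%). The lowest value of a member was in Sgo1-/+ replicate 2 for 7 members and in Sgo1-/+ replicate 3 for the other 3. The highest value came from WT replicate 1 for 4 members, from WT replicate 3 for another 4, and from Sgo1-/+ replicate 1 for 2. For 5 members WT replicate 3 and Sgo1-/+ replicate 1 were the 2 highest libraries, which held for 5.79% of the genes tested. The members share regulators and, in part, neighbouring positions, so they are not independent counts of this pattern. The mouse numbers in the labels of WT replicate 3 and Sgo1-/+ replicate 1 begin with the same 165, the others with 167, 168, 175 and 176; what that part stands for is not stated.

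H2-K1 encodes a classical class I heavy chain. Its normalized count, the estimated count scaled to a common library size, was 797, 836 and 899 in the 3 WT brains and 1132, 434 and 419 in the Sgo1-/+ brains, here and below in replicate order. Sgo1-/+ replicate 1 was the highest of all libraries, while Sgo1-/+ replicates 2 and 3 were at about one level, well below the narrow WT range. The log2 fold change of H2-K1 was -0.35 ± 0.38 (SE), with an unadjusted p of 0.390 by edgeR and of 0.4 by an exact two-sided permutation test, for which 0.1 is the smallest p that 3 against 3 allows. Its spread was 51.8 (SD) in WT and 407 in Sgo1-/+ (n = 3 each).

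H2-D1, the other classical heavy chain of this strain, had normalized counts of 1712, 1077 and 1029 in WT and 1459, 695 and 833 in Sgo1-/+. The same split of the Sgo1-/+ libraries appeared, but the highest value was in WT replicate 1. The log2 fold change was -0.35 ± 0.32, and it was -0.08 without WT replicate 1. Per length, H2-D1 was 1.3 to 2.45 times H2-K1, most in WT replicate 1 and least in WT replicate 3.

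B2m encodes beta-2-microglobulin, the light chain that class I heavy chains need to reach the surface. It varied less than H2-K1 and H2-D1, at 1945, 1692 and 1926 normalized counts in WT and 2022, 1229 and 1724 in Sgo1-/+. Only Sgo1-/+ replicate 2 was clearly outside the WT range. The log2 fold change was -0.16 ± 0.19, and without Sgo1-/+ replicate 2 it was 0.01.

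The peptide transporter is a pair of TAP1 and TAP2. Tap1 was at 65.4, 104 and 153 normalized counts in WT and 131, 64.8 and 43.3 in Sgo1-/+, a log2 fold change of -0.43 ± 0.47. Tap2 was at 242, 176 and 186 in WT and 184, 136 and 195 in Sgo1-/+, a log2 fold change of -0.23 ± 0.20. The transcripts of the pair did not move together: WT replicate 1 was highest for Tap2 and among the low libraries for Tap1, and Sgo1-/+ replicate 3 was lowest for Tap1 and second highest for Tap2. Per length, Tap2 was 1.76 to 6.5 times Tap1. Tap1 varied 3.54-fold between its highest and lowest library and Tap2 1.78-fold. Without WT replicate 1, the log2 fold change of Tap2 was -0.08 and that of Tap1 -0.69. Tap1 was at -0.99 without Sgo1-/+ replicate 1, -0.09 without WT replicate 3 and -0.13 without Sgo1-/+ replicate 3. About 14.1% of the exon bases of Tap2 overlap the gene Gm15821 on the opposite strand.

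Tapbp encodes tapasin, which holds the heavy chain at the transporter while peptides are exchanged. It was at 479, 422 and 390 normalized counts in WT and 395, 324 and 375 in Sgo1-/+, the narrowest range of the members (1.48-fold). The groups overlapped by 1 library, since Sgo1-/+ replicate 1 was above WT replicate 3. Its log2 fold change of -0.24 ± 0.13 had the lowest unadjusted p of the 10, 0.120 by edgeR. WT replicate 1 was its highest library, and without it the log2 fold change was -0.15. About 24.9% of its exon bases overlap the gene Gm19412 on the opposite strand, and the kit named in the labels does not mark strand, so reads from that part cannot be assigned to one of the genes.

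Psmb8 and Psmb9 encode catalytic subunits that replace Psmb5 and Psmb6 when the immunoproteasome is built. Psmb8 was at 55.5, 105 and 123.2 normalized counts in WT and 114, 36.5 and 65.7 in Sgo1-/+, a log2 fold change of -0.39 ± 0.47. Psmb9 was at 59.8, 46.8 and 56.9 in WT and 58.6, 46.6 and 39.5 in Sgo1-/+, a log2 fold change of -0.17 ± 0.25. Psmb8 spanned 3.37-fold over the libraries and Psmb9 1.51-fold, although they lie on either side of Tap1. Psmb9 and Tap1 overlap by 212 exon bases on opposite strands. About 14.7% of the exon bases of Psmb8 overlap the gene Gm20496 on the opposite strand, with the same limit as for Tapbp. Without WT replicate 1 the log2 fold changes were -0.66 for Psmb8 and -0.10 for Psmb9.

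Both subunits were minor beside those they replace. Per length, Psmb8 was 1.81, 3.06 and 3.78% of Psmb5 in WT and 3.25, 1.1 and 1.88% in Sgo1-/+. Psmb9 was 2.43 to 3.53% of Psmb6 over the 6 libraries. Psmb10, the third inducible subunit, stood nearer to the subunit it replaces, at 39.9 to 58.9% of Psmb7. These percents depend on the length divided by, all annotated exons together, which was 3381 bases for Psmb8 and 3660 for Psmb9. Not divided by length, mean normalized counts in WT were 94.6 for Psmb8 and 866 for Psmb5, and 54.5 for Psmb9 and 908 for Psmb6. For Psmb10 and Psmb7 they were 305 and 1304. The order of libraries differed between the ratios: Sgo1-/+ replicate 3 was the lowest for Psmb9 and the highest for Psmb10. Psmb5, the most abundant of the constitutive proteasome genes listed per length, was steady at 816, 914 and 867 normalized counts in WT and 935, 884 and 931 in Sgo1-/+. Of the 14 constitutive core genes tested, 0 were called. In Sgo1-/+, 12 had a lower mean, beside 50.2% of all genes tested, and 2 a higher one. The median log2 fold change was -0.07.

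**Figure D2:**
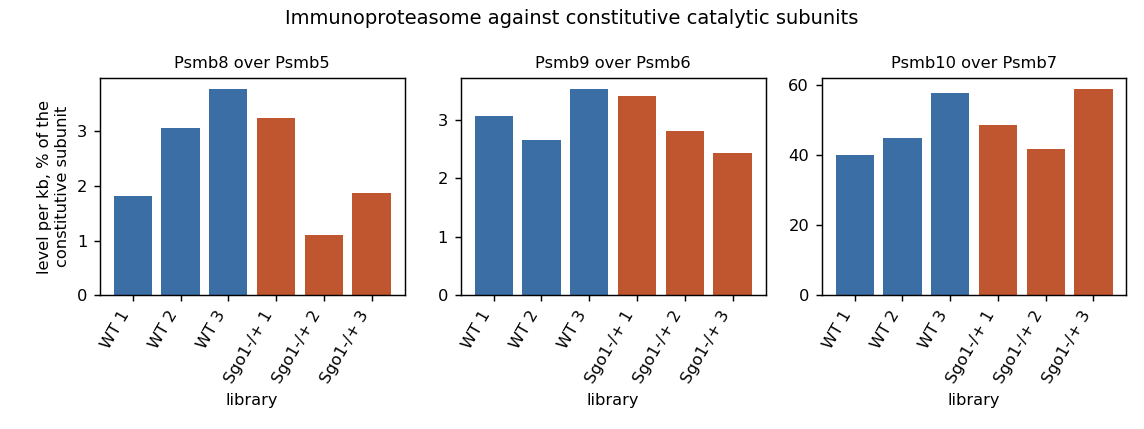
Level per kb of each inducible proteasome subunit as a percent of the constitutive subunit it replaces (y axis, from 0, a different scale in each panel), with 1 bar per library, WT in blue and Sgo1-/+ in orange. Psmb8 and Psmb9 stay under 4% in every library, and Psmb10 is between 39.9 and 58.9%. The percents depend on the exon length by which each gene is divided.

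Cd74 encodes the invariant chain, which fills the class II groove until the endosome, and H2-Aa the alpha chain of the class II molecule I-A. Cd74 lies on chromosome 18 (60803848 to 60812646, plus strand in mm10). Cd74 was at 131, 106 and 352 normalized counts in WT and 197, 33.4 and 93.8 in Sgo1-/+. H2-Aa was at 36.3, 44.8 and 88.3 in WT and 84.2, 20.3 and 27.5 in Sgo1-/+. WT replicate 3 was highest for both, Sgo1-/+ replicate 1 was second and Sgo1-/+ replicate 2 lowest. Cd74 had the widest range of the members, 10.53-fold, and only 2.64% of the genes tested spanned more. The log2 fold change of Cd74 was -0.86 ± 0.69 and that of H2-Aa -0.35 ± 0.60, and without WT replicate 3 they were -0.13 and 0.12. Without WT replicate 1 they were -1.08 and -0.59. Per length, Cd74 was 3.73 to 9.02 times H2-Aa. In bulk tissue, fewer class II cells and less RNA per cell cannot be told apart.

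Leaving out Sgo1-/+ replicate 1 moved the members' median most. The median log2 fold change of the 10 was then -0.81, and 3 of them had an unadjusted p under 0.05 with Sgo1-/+ lower, against 1.67% of the 16676 genes tested. The 3 were H2-K1 (log2 fold change -0.98, unadjusted p 0.000346), H2-D1 (-0.74, 0.0333) and H2-Aa (-1.23, 0.0484), all by edgeR with 2 Sgo1-/+ libraries. None passed the Benjamini-Hochberg adjustment by edgeR, with an adjusted p of 0.9998 for each. With each of the other 5 libraries left out in turn, the member median was between -0.34 and -0.14, and 0 members had an unadjusted p under 0.05. With Sgo1-/+ lower, that threshold was passed by 1.91, 1.45 and 3.06% of all genes tested without WT replicates 1, 2 and 3, and by 0.731 and 0.853% without Sgo1-/+ replicates 2 and 3. Beyond its mouse number, nothing in the labels sets Sgo1-/+ replicate 1 apart from the other Sgo1-/+ libraries, and it stays in all values given here unless stated.

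**Figure D3:**
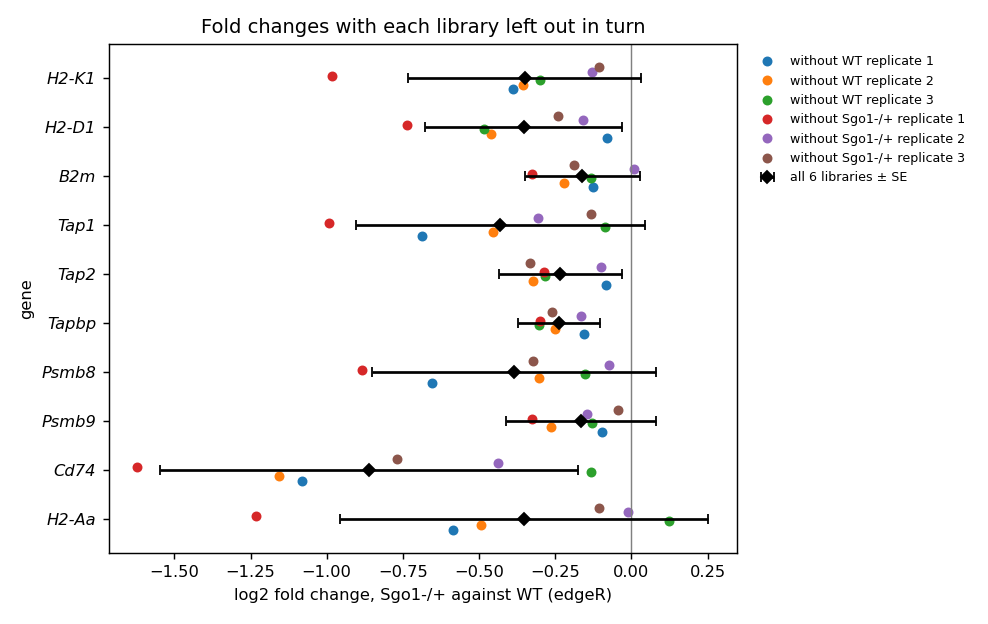
Log2 fold change of Sgo1-/+ against WT by edgeR (x axis) for each MHC antigen presentation gene, with all 6 libraries (black diamond, bars ± SE) and with each library left out in turn (coloured points). Removing Sgo1-/+ replicate 1 (red) takes Cd74 to -1.62 and H2-Aa to -1.23, while removing WT replicate 3 (green) takes H2-Aa to 0.12.

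The class I heavy chain genes outside the members varied in part as H2-K1 and H2-D1 did. Of 16 listed, 13 passed the filter and 0 were called. In Sgo1-/+, 12 had a lower mean, beside 50.2% of all genes tested, and 1 a higher one. The median log2 fold change was -0.22, beside -0.0007 over all genes tested. Sgo1-/+ replicate 2 was below every WT library for 9 of the 13 (20.2% of all genes tested). Sgo1-/+ replicate 3 was so for 8 (19.0%) and Sgo1-/+ replicate 1 for 3 (17.4%). WT replicate 3 and Sgo1-/+ replicate 1 were the 2 highest for 4 (5.79%). Others had other orders, such as H2-T24, which was at 72.4, 95.6 and 114 normalized counts in WT and 72.1, 111 and 97.1 in Sgo1-/+ and is named after its values were seen. In 2 of the 13 the groups did not overlap with Sgo1-/+ lower, against 3.57% of all genes tested. H2-K2, a class I locus near H2-K1, was at 54.8, 29.9 and 20.4 normalized counts in WT and 17.1, 5.58 and 5.21 in Sgo1-/+ (log2 fold change -1.87 ± 0.59, unadjusted p 0.0156 by edgeR), and its highest value was in WT replicate 1. H2-Q1 was at 22.2, 19.0 and 25.4 in WT and 12.9, 7.09 and 13.6 in Sgo1-/+ (-0.99 ± 0.36, unadjusted p 0.0289 by edgeR). The adjusted p was 0.9999 by edgeR for both. Without WT replicate 1 the log2 fold change of H2-K2 was -1.4 and that of H2-Q1 -0.99. Their unadjusted p by edgeR was then 0.0439 and 0.0618. For H2-Q1 it was also above 0.05 without WT replicate 3 (0.0865) or Sgo1-/+ replicate 2 (0.0893). For H2-K2 it was 0.056 without Sgo1-/+ replicate 2 and 0.0531 without Sgo1-/+ replicate 3. Each stayed under 0.05 with any other library left out. The most abundant class I heavy chain per length was H2-D1, and H2-K1 and H2-D1 together gave 51.4 to 64.4% of the normalized counts of all 18 heavy chain genes listed.

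The heavy chain genes are close copies, so the sum over all 18 was also taken. It was 3894, 3409 and 3750 normalized counts in WT and 4452, 2117 and 2387 in Sgo1-/+, a difference of the log2 means of -0.30. The sum split the Sgo1-/+ libraries as H2-K1 did, with replicate 1 above every WT library and replicates 2 and 3 below. Of the 150-base stretches of each gene's annotated transcripts, the share also present in another gene's transcripts was 0% for H2-K1, 1.35% for H2-D1 and 0% for B2m, Cd74 and H2-Aa. Of the other members, Tap1, Tap2 and Psmb9 had 1.04, 0.565 and 1.46%, but Psmb8 had 4.55% and Tapbp 10.1%. It was also higher for H2-Q4 (9.87%), H2-Q6 (5.99%), H2-Q7 (5.9%) and H2-T22 (22.3%). Values for these 4 genes, Psmb8 and Tapbp are uncertain, since how reads with several matches were counted is not stated.

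H2-Q6 and H2-Q7, nonclassical class I genes whose promoter stretches are shown above, had the library order of the class II genes H2-Aa and Cd74 at the top. H2-Q7 is named after its values were seen. H2-Q6 was at 73.3, 82.9 and 233 normalized counts in WT and 192, 38.3 and 68.2 in Sgo1-/+, and H2-Q7 at 101, 90.5 and 226 in WT and 217, 48.1 and 47.8 in Sgo1-/+. In both, WT replicate 3 and Sgo1-/+ replicate 1 were the highest, far above the other 4 libraries.

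The enzymes and chaperones that prepare class I peptides had fold changes in both directions. Of 11 listed genes outside the members, 11 were tested, 0 were called, 4 had a lower and 7 a higher mean in Sgo1-/+, and the median log2 fold change was 0.05. Calr, calreticulin, the most abundant per length, was at 3157, 2371 and 3550 normalized counts in WT and 3278, 3654 and 3947 in Sgo1-/+. Erap1, the aminopeptidase that trims peptides in the endoplasmic reticulum, was the only one whose groups did not overlap, with Sgo1-/+ lower as for 3.57% of all genes tested. It was at 164, 197 and 167 normalized counts in WT and 137, 103 and 139 in Sgo1-/+, a log2 fold change of -0.48 ± 0.18 with an unadjusted p of 0.0320 and an adjusted p of 0.9999 by edgeR. The unadjusted p of Erap1 by edgeR was 0.0991 without WT replicate 2, 0.0508 without WT replicate 3 and 0.0947 without Sgo1-/+ replicate 2. It stayed under 0.05 with any other library left out. Nlrc5, the known transactivator of class I genes, was chosen for its values: it was at 34.7, 43.8 and 70.02 normalized counts in WT and 91.9, 12.2 and 25.3 in Sgo1-/+, with Sgo1-/+ replicate 1 highest and Sgo1-/+ replicate 2 lowest.

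Of the 17 listed class II pathway genes outside the members, 14 were tested and 0 were called. A lower mean in Sgo1-/+ was found for 8 and a higher one for 6, with a median log2 fold change of -0.14. Ctss, cathepsin S, which cuts the invariant chain and is abundant in microglia, was the highest per length, at 1351, 1207 and 1049 normalized counts in WT and 1280, 1017 and 1485 in Sgo1-/+. Its values did not follow those of Cd74. The partners of H2-Aa did, and are named here after their values were seen: H2-Ab1, the beta chain of I-A, was at 44.3, 28.1 and 74.0 in WT and 88.3, 16.0 and 28.7 in Sgo1-/+, and H2-Eb1 at 44.3, 19.0 and 93.7 in WT and 76.0, 18.2 and 41.9 in Sgo1-/+. Per length, H2-Aa was 0.553 to 1.08 times H2-Ab1. Ciita, the class II transactivator, was low at 10.6, 6.83 and 24.8 in WT and 22.4, 14.2 and 8.97 in Sgo1-/+, again with WT replicate 3 and Sgo1-/+ replicate 1 highest. Of the 14 tested, only H2-Ab1, H2-Eb1 and Ciita, so 3, had these as the 2 highest libraries, beside 5.79% of all genes tested. H2-Ea-ps, which C57BL6 mice are known not to express, was at 0 estimated counts in all 6 libraries.

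Interferon induces most of the members, and 25 signalling and response genes were listed. All 25 were tested and 0 were called. A lower mean in Sgo1-/+ was found for 22, beside 50.2% of all genes tested, and a higher one for 3. The median log2 fold change was -0.49. Jak1, a kinase of interferon receptors and the highest of the list per length, was at 2159, 2230 and 2545 normalized counts in WT and 2288, 2485 and 2345 in Sgo1-/+. The listed receptors of class I, among them the T cell genes Cd8a and Cd8b1, were near the limit of detection. Of the 6 found genes 2 were tested, Pirb and Cd8a. Pirb, the highest of them per length, was at 10.98, 23.7 and 38.7 in WT and 31.1, 21.3 and 19.97 in Sgo1-/+.

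Within the interferon list, different genes peaked in different WT brains. The genes of this paragraph were grouped after their values were seen, so the grouping is a description with no test. Among the guanylate binding and immunity-related GTPases, known for their response to interferon-gamma, 5 of 6 (Gbp2, Gbp3, Gbp7, Igtp, Irgm1 and Iigp1) were highest in WT replicate 3 and 1 in Sgo1-/+ replicate 1. Gbp2 was at 98.7, 111 and 351 normalized counts in WT and 246, 55.7 and 61.4 in Sgo1-/+. Iigp1 was at 26.2, 82.8 and 218 in WT and 98.4, 17.2 and 14.3 in Sgo1-/+. On the log2 scale and relative to each gene's own median, the median of the 6 was 1.43 in WT replicate 3 and 0.54 in Sgo1-/+ replicate 1, and lay between -0.91 and 0.12 in the other libraries.

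Genes known for their response to type I interferon had another order. Of Ifit1, Ifit3, Isg15, Oasl2, Usp18 and Irf7, 5 were highest in WT replicate 2 and 1 in WT replicate 1, and 0 in WT replicate 3. Ifit1 was at 159, 180 and 50.7 normalized counts in WT and 85.4, 32.3 and 51.2 in Sgo1-/+. The median of the 6 relative to each gene's own median reached 1.26 for WT replicate 2 and 0.82 for WT replicate 1. It stood at -0.39 for WT replicate 3 and at 0.39 for Sgo1-/+ replicate 1, which was thus raised in both groups. Sgo1-/+ replicates 2 and 3 were low in both groups, at -0.91 and -0.75 for the GTPases and -0.97 and -0.62 for the type I genes. The members H2-K1, Tap1, Psmb8, Cd74 and H2-Aa, for which WT replicate 3 and Sgo1-/+ replicate 1 were the 2 highest libraries, shared that feature with the GTPases Gbp2, Gbp3, Igtp, Irgm1 and Iigp1.

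**Figure D4:**
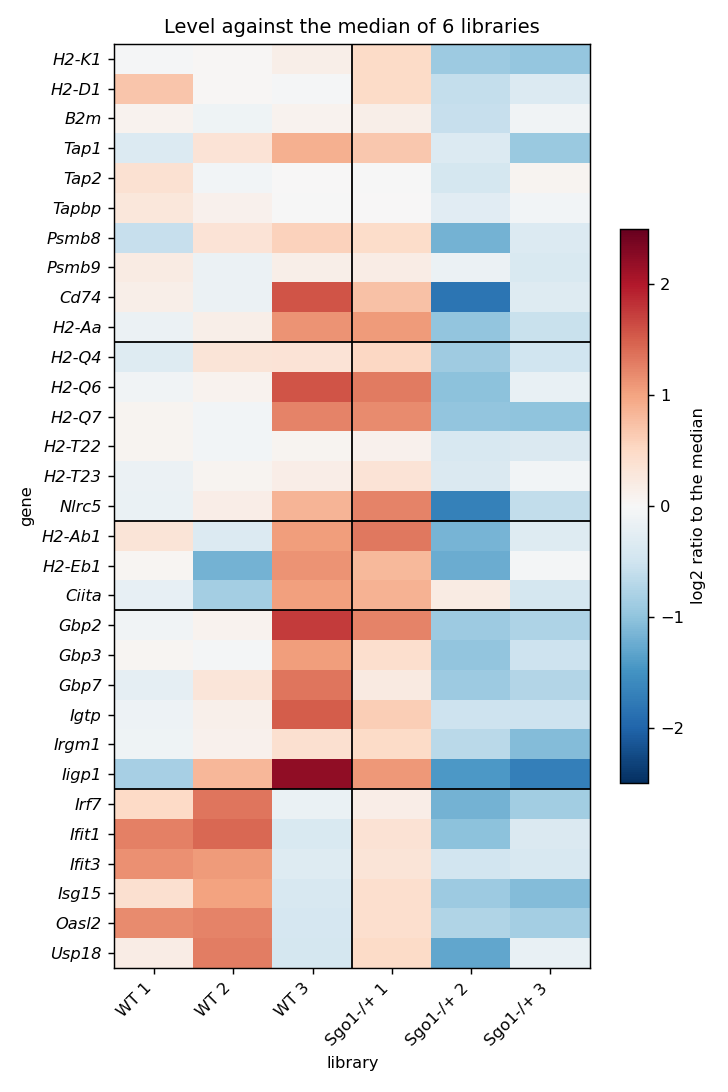
Log2 ratio of each gene's normalized count to its median over the 6 libraries, with libraries in columns and genes in rows, from the top the 10 members, other class I genes with Nlrc5, other class II genes with Ciita, interferon-inducible GTPases and type I interferon genes. WT replicate 3 and Sgo1-/+ replicate 1 are red in the class II and GTPase rows, and WT replicates 1 and 2 in the last 6 rows. In those 6 rows Sgo1-/+ replicate 1 is also above the median, at 0.17 to 0.48. Sgo1-/+ replicates 2 and 3 are blue in most rows. Rows outside the members are only a part of their lists. The class II ones are the 3 of 14 tested genes whose 2 highest libraries were WT replicate 3 and Sgo1-/+ replicate 1.

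The 3 genes with the pattern most like a member's were found for 3 of the members over the 6 libraries, as the root mean square difference of log2 normalized counts centred on each gene's median. For H2-K1 they were Gimap1 (0.117), Irgm1 (0.162) and Sema3d (0.195). Irgm1, an interferon-inducible GTPase, was at 212, 247 and 303 normalized counts in WT and 319, 144 and 107 in Sgo1-/+. For Cd74 they were Smagp (0.267), Stoml3 (0.353) and H2-Q6 (0.426). For Psmb8 they were Ccdc122 (0.176), Dpp4 (0.19) and Rubcnl (0.194). With 6 libraries and 16337 genes tested, some near matches are found for any gene.

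Markers of other cells and regions moved in part with the members. All 10 microglial markers were tested and 10 had a higher mean in Sgo1-/+ (median log2 fold change 0.30, 0 called), against the direction of the members. Their summed normalized count was 4849 to 5959 in WT and 6093 to 7049 in Sgo1-/+. Csf1r, the receptor microglia depend on, was at 819, 1183 and 1056 in WT and 1365, 1288 and 1317 in Sgo1-/+ (unadjusted p 0.0384 and adjusted p 0.9999 by edgeR). C1qa, the highest of the list per length, was at 796, 819 and 751 in WT and 935, 588 and 1043 in Sgo1-/+. C1qb, named after its values were seen, was at 719, 800 and 756 in WT and 1016, 679 and 900 in Sgo1-/+. These were the 2 of the 10 markers that were lowest in Sgo1-/+ replicate 2. The microglial sum of Sgo1-/+ replicate 2, the library lowest for 7 members, was above that of every WT library.

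Red cell genes and some vessel and B cell markers were highest in Sgo1-/+ replicate 1. Pecam1, Ms4a1, Cd79a and the other genes of this paragraph are named after their values were seen. The sum of 5 red cell genes was 17050 there, against 4024 to 6358 in WT and 1393 to 2580 in the other Sgo1-/+ libraries, and the endothelial sum of 7 genes was 4226 against 2779 to 3231. Pecam1, an endothelial adhesion molecule, was at 642 normalized counts there and at no more than 309 in any other library, and Cdh5 and Ly6c1 were also highest there. The endothelial genes did not all follow: Cldn5 was highest in WT replicate 3, Flt1 in Sgo1-/+ replicate 3, and Slco1a4 was at 512 in Sgo1-/+ replicate 1, below its WT range of 550.2 to 603. The B cell marker Ms4a1 was at 28.9 there and at most 6.04 elsewhere, and Cd79a at 24.0 and at most 14.4. The sum of all 7 B and plasma cell genes, most of it Ighm, did not follow, at 158 to 513 in WT and 370 to 606 in Sgo1-/+. The 11 T and NK cell genes summed to 57.2, 260 and 390 in WT and 429, 449 and 316 in Sgo1-/+, most of it Cd4 except in WT replicate 1, and Cd4 reached 399. Of the T cell receptor complex, Cd3e, Cd3g and Cd3d reached no more than 2.03, 4.53 and 9.72 normalized counts in any library, and Trbc2 reached 70.2. The T cell gene Cd8a, outside that complex, reached 16.8. WT replicate 3, the library highest for Cd74 and H2-Aa, had Ms4a1 and Cd79a at 2.03 each and red cell genes at 5633, within the range of the other WT libraries. The part of these cells in the members' values was not tested.

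The sums of dendritic cell and perivascular macrophage markers did not separate WT replicate 3 and Sgo1-/+ replicate 1 from the rest. Of 7 dendritic cell genes listed, 3 were tested. The sum of all 7, most of it Flt3 and Zbtb46, was 755 in WT replicate 1, 247 and 345 in WT replicates 2 and 3, and 293 to 372 in Sgo1-/+. Cd209a, of the same list, was low but highest in these 2 libraries, at 10.1 in WT replicate 3 and 16.4 in Sgo1-/+ replicate 1. The sum of 6 perivascular macrophage genes was 311 to 492 in WT and 296 to 441 in Sgo1-/+, and it was highest in WT replicate 2. Olfactory bulb genes moved with the members in part, although the bulb was to be left out. All 6 listed had a lower mean in Sgo1-/+ (median log2 fold change -1.80, 0 called), beside 50.2% of all genes tested. They summed to 306, 2057 and 1769 in WT and 980, 234 and 139 in Sgo1-/+. Sgo1-/+ replicates 2 and 3 were thus the lowest, as for 7 of the members and 5.82% of all genes tested. WT replicate 2 was the highest, as for 0 of the members and 18.3% of all genes tested. The part of the olfactory bulb genes in the members' values was not tested.

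Choroid plexus genes summed to 20780 in WT replicate 1 and 22770 in Sgo1-/+ replicate 3, against 262 to 7359 in the others. WT replicate 1 was the highest library for 4 members (28.1% of all genes tested) and Sgo1-/+ replicate 3 for 0 (12.8%). The part of the choroid plexus genes in the members' values was not tested. Without WT replicate 1, which held the cerebellar and brain stem genes, all 10 members still had a lower mean in Sgo1-/+ and 0 had an unadjusted p under 0.05.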

How the data were processed

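Total RNA of 6 brains was sequenced on an Illumina MiSeq with a TruSeq V2 kit. The authors aligned paired 150-base reads to mm10 in Strand NGS and deposited raw estimated counts per Ensembl gene, used here, and values normalized and log-transformed, not used. BWA and edgeR are also named per the submitters' processing notes. The use of strand and of reads with several matches is not given in the sources used here. Columns of the authors' group comparison hold fold changes and directions and were not used.

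The table's column names were matched to samples by group block and replicate number, and Xist and Ddx3y fitted the labelled sex in 6 of 6 libraries. Estimated counts were rounded, filtered with filterByExpr (16337 of 38087 genes), scaled by TMM and compared with edgeR 4.0.16 (quasi-likelihood test, no covariates) in R 4.3.3, with Benjamini-Hochberg adjustment over all genes tested and a threshold of 0.05. SE is the log2 fold change over the square root of F. Normalized counts are scaled to the mean effective library size. Levels per kb use the exon union of GENCODE annotation matched by Ensembl ID (36308 genes). DESeq2 1.42.0 and limma 3.58.1 (log2 of normalized count plus 1) were alternatives. The scripts were tested on simulated data. Separate mice are the replicates (n = 3). Estimated counts near 40 or lower, as for H2-Aa, carry the widest counting error, and errors given cover the spread between libraries.

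All members were named. Genes of the pathway lists were named if they passed the test, if their groups did not overlap with an unadjusted p under 0.05 (at most 3 per list), or as the list's most abundant gene, and others are said to be chosen after their values were seen. Members and lists were chosen with earlier results of these data known. A result that this rule names in the interferon list is not reported here. The kappaB string was shortened by 1 base after its matches had been seen, which raised the share of all promoters that hold it.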

Additional observations from a re-analysis of the deposited data

How the results depend on the processing

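None of the 10 members passed the adjusted threshold under any of 13 alternatives (DESeq2, limma, other size factors, a looser and a stricter filter, a term for sex or for the replicate number, and each library left out in turn), and 128 of 130 member fold changes kept their direction. With each library left out, H2-Aa ran from -1.23 (without Sgo1-/+ replicate 1) to 0.12, turning without WT replicate 3, and B2m from -0.33 to 0.0085, turning without Sgo1-/+ replicate 2. Over all genes, DESeq2 called 3 genes, and leaving out 1 library gave 0 to 1, the 1 without Sgo1-/+ replicate 2. With each library left out, 0 to 3 members had an unadjusted p under 0.05, the member median ran from -0.81 (without Sgo1-/+ replicate 1) to -0.14, and the log2 difference of the class I heavy chain sum from -0.71 to -0.11. The fits without 1 library leave 2 in that group, and the spread is estimated from 5 libraries.

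The replicate numbers did not pair the samples: deviations of same-numbered libraries correlated at -0.15, 0.01 and -0.21, and not every library correlated best with its own number. With the replicate block, 1 member, H2-D1, had an unadjusted p under 0.05 (0.0367 by edgeR), and 0 genes were called. With 3 mice a group and a biological coefficient of variation of 25.9%, differences of the size seen here were not separated from the spread between brains. Run and genotype cannot be told apart.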
